A study of Homo sapiens with 7 samples.

Results

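TR, the transcription rate read by global run-on sequencing (GRO-seq), was compared gene by gene with TA, the translation activity read from polysome-bound mRNA, in log-phase cells of HCT116, an established human colorectal carcinoma line. The measure was the log2 ratio of the mean RPKM (reads scaled by exon length and library size) of 2 polysome libraries to that of 2 GRO-seq libraries. Genes with a mean of at least 1 RPKM in GRO-seq or in polysomes were compared, which took in 14283 of the 20056 symbols with values. Of these, 10842 reached the threshold in both, 3351 in GRO-seq alone and 90 in polysomes alone. The ratio spans every step from the polymerase to the ribosome, namely transcription, splicing and 3′ end formation, export, decay in the cytoplasm and loading with ribosomes, and it does not separate them.

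A messenger RNA is made at a rate set by the polymerases on its gene and is lost at a rate of its own, so mRNAs of long life build up relative to their synthesis and mRNAs of short life do not. In growing cells, the mRNAs of housekeeping proteins such as metabolic enzymes and chaperones tend to be long-lived, whereas those of transcription factors, cytokines and other regulators tend to decay quickly, often through AU-rich elements in the 3′ UTR. Most mRNAs in use carry several ribosomes at a time, and such polysomes are separated from free mRNA on a sucrose gradient.

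All libraries were made from cells kept in a serum-free McCoy's 5A medium with epidermal growth factor, insulin and transferrin, with no other treatment as a group variable. For TR, nuclei were isolated and their engaged polymerases extended RNA with Br-UTP, and the labeled RNA was captured with an antibody. For TA, cells were held in cycloheximide, which stops elongation, before lysis, nuclei were removed, and mRNA was isolated from the polysomal fractions with an mRNA kit, of the type that captures poly(A) tails. No such step is described for GRO-seq, so poly(A) selection, the cycloheximide treatment and the assay cannot be told apart from the step from TR to TA. The labels number 2 libraries for each assay. The study calls them biological replicates, and whether they came from separate cultures is not given in the sources used here, so p-values measure the spread between these libraries.

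The GRO-seq libraries held 3391897 and 5629982 reads and the polysome libraries 30805391 and 22421062, as worked out from the RPKM values, and 1 RPKM on a gene of the median exon length of 3027 bases stood for 10.3 to 93.2 reads. Of 11 epithelial and colon markers, 10 reached 1 RPKM in GRO-seq and 8 in polysomes, and their summed level was 1687 and 1640 RPKM in GRO-seq and 5808 and 5873 RPKM in polysomes. Among these, VIL1, CDX1 and LGALS4 were below 1 RPKM in polysomes. The summed polysome level was 4.89 and 3.79 RPKM for 7 fibroblast markers, 44.95 and 38.1 RPKM for 7 haematopoietic markers, of which CD68 alone reached 1 RPKM, and 0.180 and 0.149 RPKM for 5 endothelial markers.

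Most genes took a smaller share of polysome-bound mRNA than of nascent RNA. Over the 14283 genes, limma, a linear model of log2(RPKM + 0.1) with variances moderated across genes, called 2503 higher on polysomes (17.5% of the genes tested) and 8375 lower (58.6%) at a Benjamini-Hochberg adjusted p under 0.05, and 3405 were not called. All of the called genes had both polysome libraries on the same side of both GRO-seq libraries. Among the 10842 genes with at least 1 RPKM in both, 2432 were called higher (22.4%) and 5080 lower (46.9%), and the median log2 ratio was -0.51 with quartiles of -1.55 and 0.49. RPKM values are shares of a library, so the zero of the ratio depends on scaling. With each library centred on its median, which shifts ratios by about 0.65 on the log2 scale, 4067 genes were called higher and 6490 lower, so the share of calls that were higher moved from 23.0% to 38.5%. Without GRO-seq replicate 1 or 2 the calls fell to 1506 and 1368 higher and 5733 and 5480 lower, since the spread is then estimated from the polysome pair alone.

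Changes of large size were common in the downward direction. Of the genes with at least 1 RPKM in both, 1829 had a TA under 1/4 of their TR and 555 had a TA over 4 times their TR, while 167 and 11 genes passed 16-fold in those directions. Across all genes above 0 in both, Pearson's r of log2 TA with log2 TR was 0.607 (n = 13806 genes). Pairs of GRO-seq replicate 1 with a polysome library gave 0.626 and 0.648, and pairs of GRO-seq replicate 2 gave 0.568 and 0.590. Between replicates r was 0.963 for GRO-seq and 0.979 for polysomes. These values are across genes, which are not independent replicates and share library depth and base composition.

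**Figure D1:**
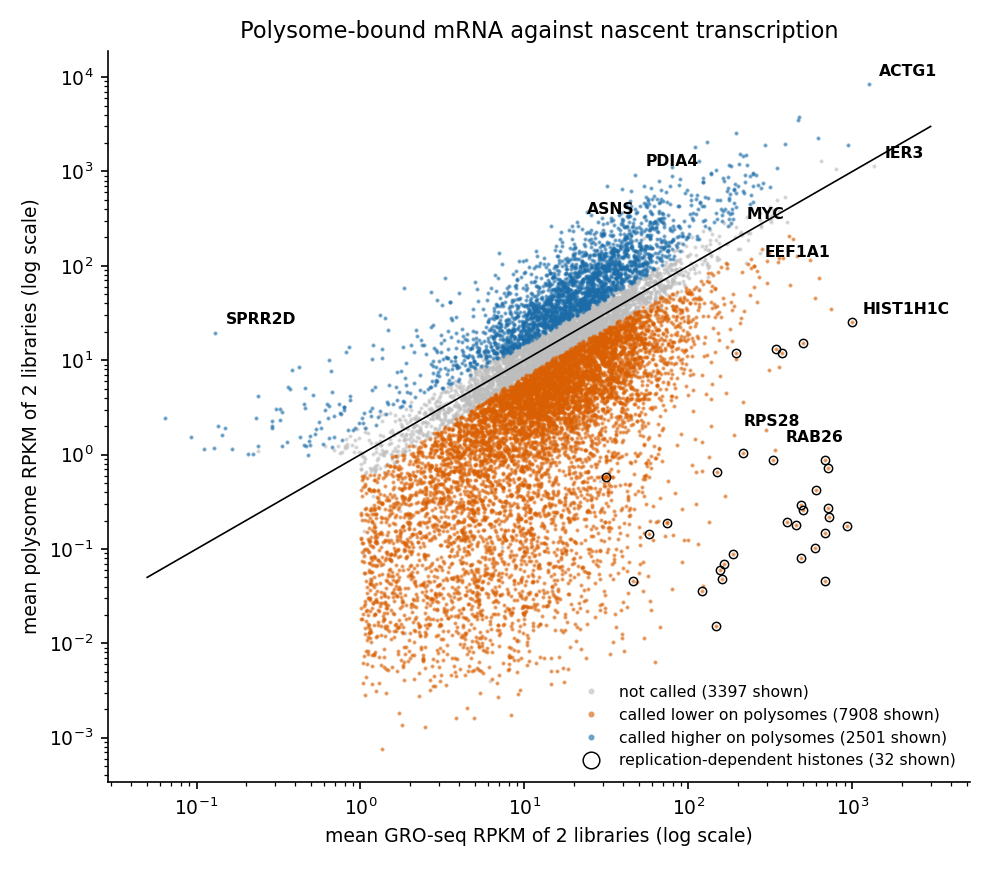
Mean polysome RPKM against mean GRO-seq RPKM of each gene above 0 in both, on log axes, with the line of equal values. Genes called higher on polysomes are blue, those called lower are orange, those not called are grey, and circles mark the replication-dependent histone genes, all of which lie far below the line.

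TA was held by fewer genes than TR. The 100 highest genes of a library made up 11.9% and 12.6% of the summed RPKM in the GRO-seq libraries and 23.9% and 24.3% in the polysome libraries. A share of 50% of the summed RPKM was reached with 2012 and 1956 genes in GRO-seq, but with 578 and 580 in polysomes. The leading genes were largely different, since the lists of the 100 highest genes by TR and by TA shared 25 genes, or 25% of each, whereas replicates of GRO-seq shared 86 of 100 and those of polysomes 81 of 100.

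**Figure D2:**
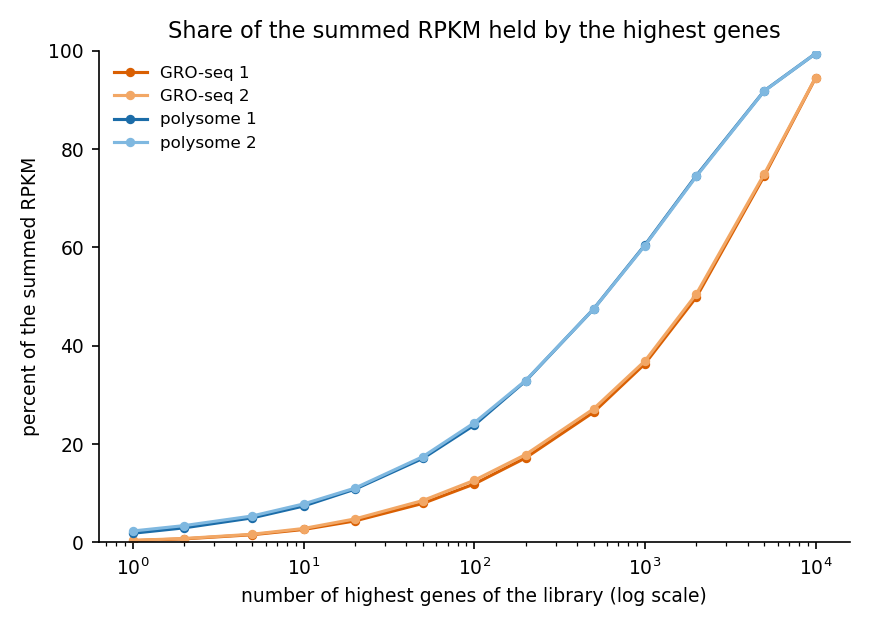
Percent of the summed RPKM held by the highest genes of each library, against the number of genes on a log axis. The curves of both polysome libraries run above those of both GRO-seq libraries, and the replicates of each assay nearly coincide.

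The 10 mRNAs with the highest TA included those of actins and of chaperones of the endoplasmic reticulum (ER). ACTG1, cytoplasmic gamma actin, was first in TA at 7362 and 9536 RPKM, against 1200.3 and 1318 RPKM in GRO-seq, where it was also among the 10 highest. S100A6, a small calcium-binding protein, followed with 4341 and 3176 RPKM against 556 and 395 RPKM, and ACTB, beta actin, with 2565 and 4489.6 RPKM against 483 and 448 RPKM. The other 7 of the 10 highest were CALR, KRT19, HSPA5, GAPDH, TMSB10, RPL8 and HSP90B1. Each of the 10 was called higher on polysomes (17.5% of all genes were), a direction favoured by choosing them by TA, the numerator of the ratio. Their limma log2 ratios ran from 1.002 ± 0.34 (SE, the standard error) for TMSB10 to 3.96 ± 0.36 (SE) for HSP90B1. The calls of CALR, HSPA5, RPL8 and HSP90B1 held with each library left out in turn, and those of the other 6 were lost without GRO-seq replicate 1 and without GRO-seq replicate 2, where the adjusted p from limma was between 0.0506 and 0.307.

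Of the 10 genes with the highest TR, 5 were histone genes. IER3, an immediate-early regulator of survival, had the highest TR at 1265 and 1455 RPKM and a TA of 944 and 1325 RPKM, and the groups overlapped (limma log2 ratio -0.28 ± 0.32 SE, adjusted p = 0.455). For DKK1, a secreted inhibitor of Wnt signaling, 738 and 861 RPKM in GRO-seq stood beside 734 and 1415 RPKM in polysomes, with a log2 ratio of 0.35 ± 0.38 (SE) that did not pass (limma, adjusted p = 0.418), though it did without polysome replicate 1 (0.83, adjusted p = 0.0145) and turned to -0.12 without polysome replicate 2. ACTG1 and TMSB10 were the only genes in both lists of 10. C12orf57, whose exons hold a small RNA gene in the annotation, fell from 630.3 and 860.3 RPKM to 24.5 and 45.6 RPKM. The histone genes were HIST1H1C, HIST1H3B, HIST1H4E, HIST1H1E and HIST2H2AC. Of the 100 genes with the highest TR, 21 were called higher on polysomes and 55 lower, near the 17.5% and 58.6% of all genes. A TA below 1 RPKM was seen in 21 of the 100, and in 3351 of all 14283 genes. A choice by TR, the denominator of the ratio, itself favours lower ratios.

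**Figure D3:**
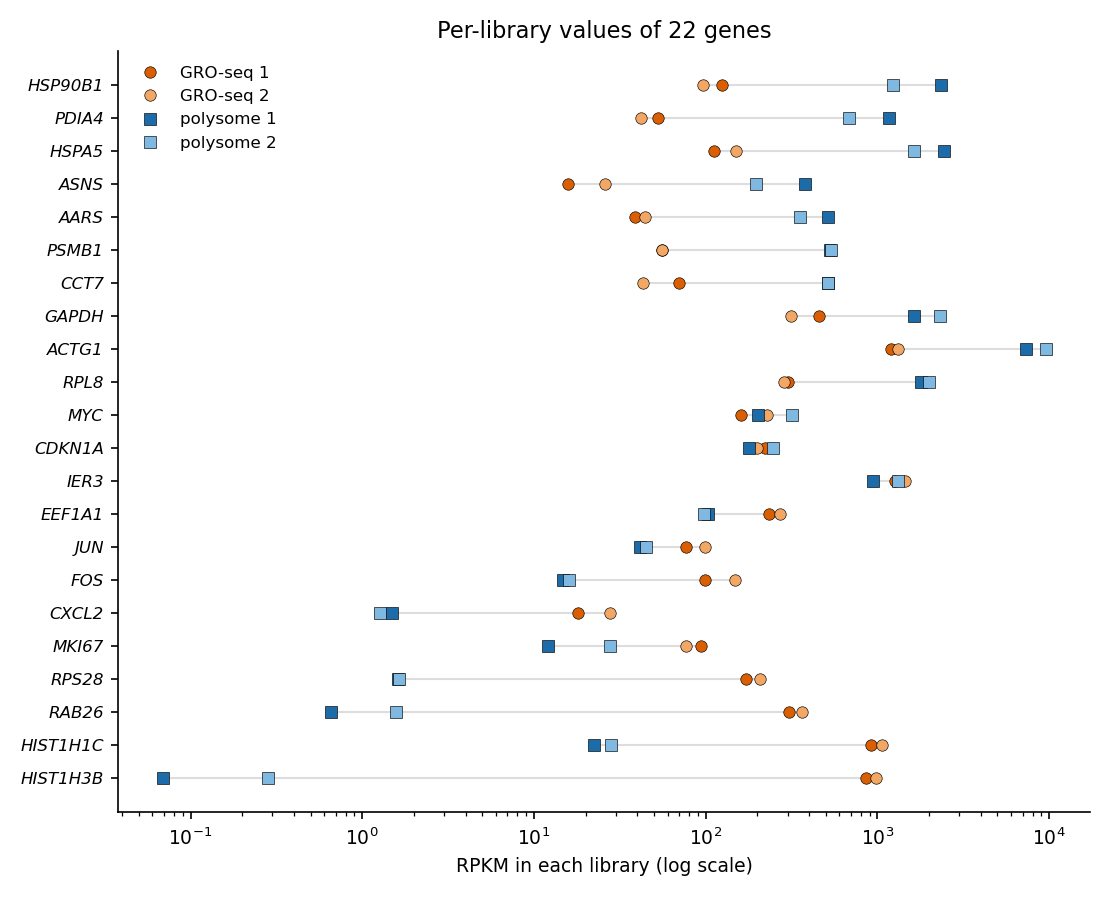
RPKM of 22 genes in each of the 4 libraries on a log axis, with circles for GRO-seq and squares for polysomes. The polysome values lie to the right for the ER, metabolic and housekeeping genes at the top, overlap the GRO-seq values for MYC, CDKN1A and IER3, and lie to the left for the genes at the bottom.

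Proteins that fold and move other proteins through the ER had the highest median ratio of the lists examined. All 31 genes for ER chaperones, the translocon and oligosaccharyl transferase were compared, 27 of them were called higher, none lower (background 17.5% and 58.6%), and their median log2 ratio was 2.74 against -0.997 over all genes. Their share of the summed RPKM was 0.451% and 0.365% in the GRO-seq libraries and 3.85% and 2.56% in the polysome libraries. PDIA4, a protein disulfide isomerase, read 52.7 and 42.2 RPKM in GRO-seq and 1175 and 679 RPKM in polysomes, a 19.5-fold higher mean (limma log2 ratio 4.24 ± 0.31 SE, adjusted p = 2.17e-05). HSP90B1, the HSP90 of the ER lumen, read 124 and 96.3 RPKM and 2358 and 1233.9 RPKM, with a limma log2 ratio of 3.96 ± 0.36 (SE, adjusted p = 5.7e-05). In both genes the polysome libraries lay far above the GRO-seq libraries, and the first polysome library above the second. HSPA5, the HSP70 of the ER and a regulator of the unfolded protein response, read 111 and 149.9 RPKM and 2458 and 1624 RPKM, and CALR, the lectin chaperone calreticulin, 208 and 185 RPKM and 2969 and 2096 RPKM. At the low end of the list, SEC63 of the translocon had 12.1 and 13.4 RPKM in GRO-seq and 15.7 and 11.9 RPKM in polysomes, and SPCS2 of the signal peptidase had 7.08 and 8.66 RPKM and 11.5 and 7.48 RPKM, neither of which passed (limma, adjusted p = 0.706 and 0.448). PPIB, an ER prolyl isomerase outside the list, was among the 10 highest ratios of all genes with at least 1 RPKM in both, at 39.9 and 38.4 RPKM and 848 and 441 RPKM, although 26.6% of its exon length overlaps another gene.

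The machines that charge tRNAs, fold cytosolic proteins and degrade them were also higher on polysomes nearly throughout. Every gene of these lists had at least 1 RPKM in both, where the background was 22.4% called higher and 46.9% lower. All 20 cytosolic aminoacyl-tRNA synthetases were called higher, with a median log2 ratio of 2.28, though 13 kept a call without GRO-seq replicate 1 and 13 without GRO-seq replicate 2. AARS, the alanyl-tRNA synthetase, was highest at 38.97 and 44.03 RPKM in GRO-seq and 518 and 354 RPKM in polysomes (limma log2 ratio 3.37 ± 0.26 SE, adjusted p = 2.44e-05). QARS, the glutaminyl-tRNA synthetase, was lowest at 45.6 and 36.3 RPKM and 73.9 and 71.5 RPKM (limma log2 ratio 0.84 ± 0.21 SE, adjusted p = 0.00878, and 0.0621 without GRO-seq replicate 2). All 8 subunits of CCT, the ring chaperonin that folds actin and tubulin, were called higher, from TCP1 with 79.8 and 70.7 RPKM and 144 and 154 RPKM (adjusted p = 0.0503 in limma without GRO-seq replicate 2) to CCT7 with 70.1 and 43.2 RPKM and 513 and 515 RPKM. Of the 14 subunits of the 20S proteasome core, 13 were called higher and none lower, with a median of 2.26. PSMB1, a beta subunit of the core, gave nearly the same value in replicate libraries, 55.3 and 55.4 RPKM in GRO-seq and 531 and 537 RPKM in polysomes. PSMB2, another beta subunit, was the one not called, at 22.2 and 25.7 RPKM and 27.3 and 36.4 RPKM (limma, adjusted p = 0.146, and 0.0269 without polysome replicate 1).

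Energy metabolism followed the same direction. The glycolytic, respiratory and cholesterol genes all had at least 1 RPKM in both, where the background was 22.4% called higher and 46.9% lower. Of 17 glycolytic genes, 15 were called higher and none lower (median 2.13), and of 76 nuclear genes of the respiratory chain and ATP synthase, 56 were called higher and 3 lower (median 1.64). PGK1, phosphoglycerate kinase, had the largest glycolytic ratio, from 41.6 and 25.6 RPKM to 314 and 335 RPKM (limma log2 ratio 3.31 ± 0.28 SE, adjusted p = 3.68e-05). TPI1 and PGAM1, which act on either side of it in the pathway, read 243 and 214 and 16.8 and 20.8 RPKM in GRO-seq against 295 and 364 and 20.3 and 24.3 RPKM in polysomes, and did not pass (limma, adjusted p = 0.0855 and 0.33), TPI1 doing so without polysome replicate 1 (0.0255). In the respiratory chain, NDUFS4 of complex I read 19.6 and 17.9 RPKM and 283 and 193 RPKM, and SDHB, the iron-sulfur subunit of complex II, 26.3 and 16.4 RPKM and 285 and 240.1 RPKM. The complex I subunits NDUFC2 and NDUFA11 were lowest, with 8.81 and 10.8 RPKM falling to 1.74 and 2.74 RPKM and 56.1 and 71.8 RPKM falling to 15.8 and 25.9 RPKM. Neither kept its call without GRO-seq replicate 1 or 2 (limma, adjusted p from 0.0509 to 0.0962), and without either library no gene of the 76 was called lower, whereas without polysome replicate 2 there were 7. Of 20 genes of cholesterol synthesis, 15 were called higher and 1 lower (median 1.21), the number higher being 8 without GRO-seq replicate 2. FDFT1, squalene synthase, rose from 47.4 and 44.1 RPKM to 269.8 and 257 RPKM, and TM7SF2, a sterol reductase, fell from 135 and 142 RPKM to 29.1 and 42.4 RPKM.

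**Figure D4:**
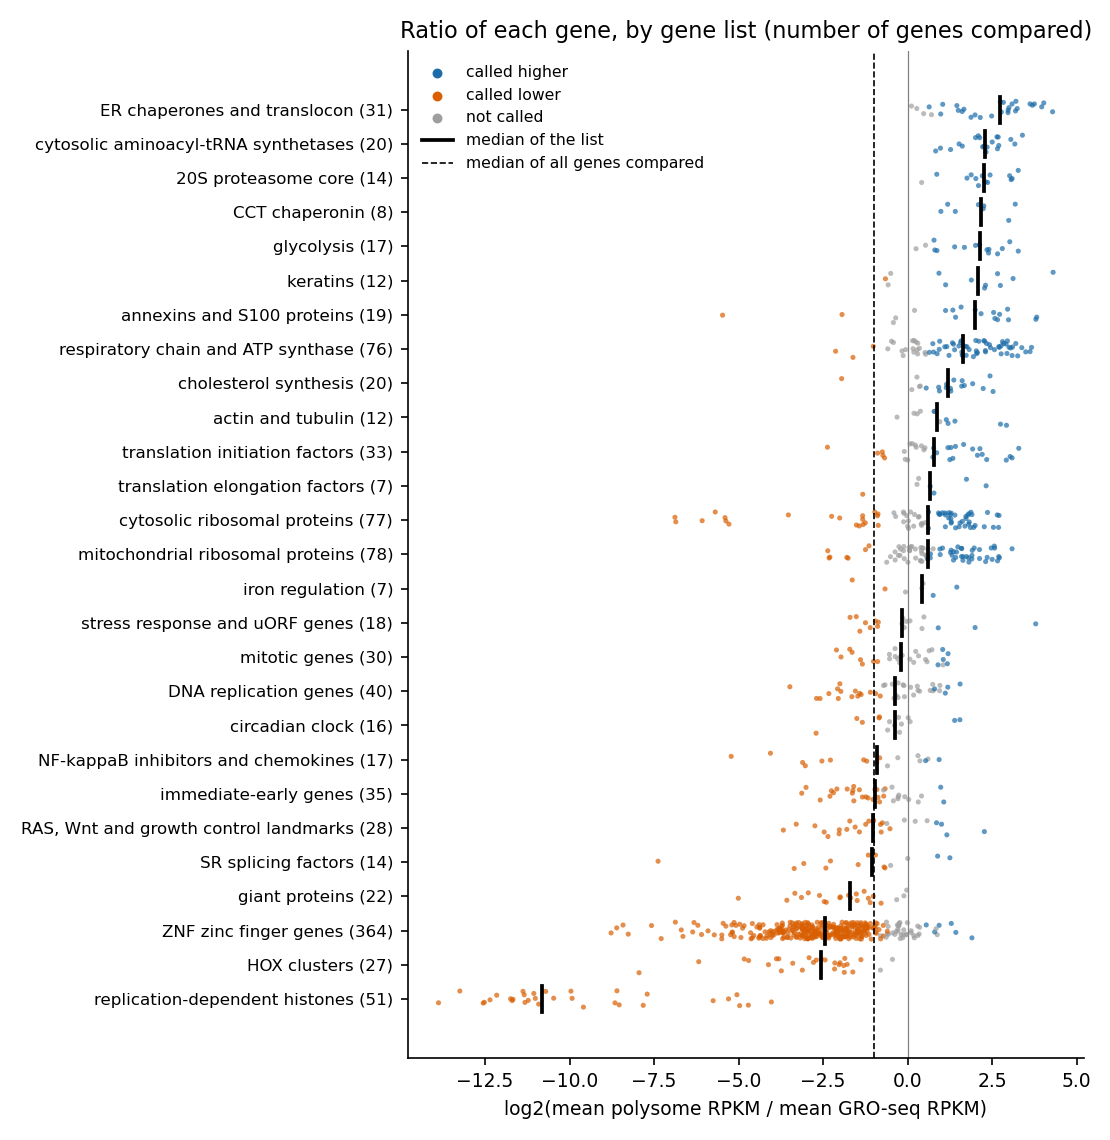
Log2 ratio of mean polysome to mean GRO-seq RPKM for each gene, by gene list, with list medians as black bars and the median of all genes as a dashed line. Housekeeping machines lie to the right of the dashed line, while zinc finger, HOX and histone genes lie to its left.

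Genes that mark the epithelium divided into high and low ratios. Of 12 keratins, the intermediate filaments of epithelial cells, 9 were called higher and 1 lower. KRT18, a keratin of simple epithelia, rose from 182 and 179.6 RPKM to 1304 and 979 RPKM, and KRT17, found in basal and injured epithelium, from 1.69 and 1.13 RPKM to 41.4 and 14.2 RPKM. The gain of KRT18 held with each library left out, while that of KRT17 rested on 9 and 10 GRO-seq reads and was lost without GRO-seq replicate 1 or 2 (limma, adjusted p = 0.0556 and 0.0702), as the number of keratins called higher fell to 5 without either. KRT23 was the keratin called lower, at 35.6 and 39.5 RPKM and 18.2 and 29.4 RPKM (limma, adjusted p = 0.0479), and it was not called without GRO-seq replicate 1, GRO-seq replicate 2 or polysome replicate 1 (adjusted p = 0.233, 0.308 and 0.192), while without polysome replicate 2 there were 3 keratins called lower. EPCAM, the epithelial adhesion molecule, rose from 72.2 and 50.3 RPKM to 431 and 431 RPKM. Of 19 annexins and S100 proteins, which bind calcium at membranes and in the cytosol, 14 were called higher and 2 lower. ANXA1 rose from 112 and 47.3 RPKM to 1414 and 831 RPKM and ANXA5 from 54.02 and 35.3 RPKM to 775 and 463 RPKM, whereas S100P fell from 5.78 and 7.66 RPKM to 0.127 and 0.175 RPKM. ANXA10, the other member called lower, lost its call without GRO-seq replicate 2 (limma log2 ratio -1.17, adjusted p = 0.0684). Of 12 genes for actins and tubulins, 6 were called higher and none lower, but with GRO-seq replicate 1 or 2 left out none was called higher, without polysome replicate 1 there were 10, and without polysome replicate 2 there were 2 called lower.

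The translation apparatus itself was uneven. Of 79 cytosolic ribosomal protein genes, 77 passed the threshold, 39 were called higher and 20 lower, with a median of 0.61 and a range from -6.88 to 2.70. The counts were 22 and 25 higher without GRO-seq replicates 1 and 2, and 12 lower without GRO-seq replicate 2. RPS4X read 101 and 95.3 RPKM in GRO-seq and 674 and 601 RPKM in polysomes, and RPL8 302 and 285 RPKM and 1789 and 1998 RPKM, both far above the line of equal values. RPL36A fell from 34.1 and 51.8 RPKM to 0.513 and 0.215 RPKM and RPS28 from 171 and 206 RPKM to 1.61 and 1.63 RPKM. Of their exon length, 22.4% and 20.6% overlap another gene. Ribosomal protein genes have many processed copies, and reads that match a copy equally well can be lost or split, so the values of this family are uncertain. The genes called higher had a median of 6 annotated pseudogenes of the same name, and those called lower and those not called had 19.5 each, although RPS28 had 5. Spearman's rho of the log2 ratio with that number was -0.345 over 77 genes, as a description, and its part in the ratios was not tested. Overlapping genes also move with these counts, since 36 of the 77 remained when such genes were left out, with 20 called higher and 6 lower. The list took 3.49% and 3.70% of the summed RPKM in GRO-seq and 6.16% and 6.57% in polysomes. Of 78 mitochondrial ribosomal protein genes, 39 were called higher and 7 lower (13 lower without polysome replicate 2), led by MRPL28 with 11.6 and 8.57 RPKM and 84.8 and 87.1 RPKM.

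Ribosomal proteins and elongation factors are the textbook carriers of the 5′ terminal oligopyrimidine (TOP) start, a C followed by a run of pyrimidines, through which growth signals control their loading onto ribosomes. The start sites of 8 such genes are shown because they carry ratios from both ends of the list. Each line gives 5 bases before and 15 bases from the start of the gene in RefSeq on GRCh38.p14, 5′ to 3′, with capitals for a C at the start and the pyrimidines after it where at least 4 follow.
RPS4X: gccccaatttctacgcgcac
RPS6: tggccCTCTTTTCCgtggcg
EEF2: gcgttCTCTTCCgccgtcgt
RPL13A: tcctcCTTTTCCaagcggct
EEF1A1: acgttCTTTTTCgcaacggg
RPS26: acctcgattttcttccgcca
RPS28: acgtgactcctctccgccag
RPL36A: ggtttCTTTCTTTCCgcgcc
A TOP start by this definition stood at 46 of the 62 cytosolic ribosomal protein genes with a RefSeq start (74.2%) and at 794 of all 11072 genes matched (7.17%). Genes with and without it were called in both directions. RPL36A has such a run and a TA of 0.513 and 0.215 RPKM, while RPS4X, without one in this window, had 674 and 601 RPKM. Among the ribosomal protein genes with the run, 24 were called higher and 11 lower, and among the 16 without it 6 were called higher and 5 lower. EEF2, which moves the ribosome along the mRNA, rose from 209.9 and 141 RPKM to 923 and 829 RPKM, while EEF1A1, which delivers tRNAs, fell from 232 and 271 RPKM to 103 and 97.1 RPKM (limma log2 ratio -1.32 ± 0.22 SE, adjusted p = 0.0011). A match or its absence describes these letters in the reference and says nothing of the start used in these cells.

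Of 33 translation initiation factor genes compared, 18 were called higher and 5 lower, the latter 3 and 0 without GRO-seq replicates 1 and 2. All 33 initiation factor genes had at least 1 RPKM in both, where the background was 22.4% called higher and 46.9% lower. The largest ratios were in subunits of eIF3, the scaffold of the initiation complex. EIF3I rose from 45.5 and 43.9 RPKM to 480.2 and 391 RPKM, and EIF3E from 49.9 and 45.1 RPKM to 444 and 364 RPKM. EIF4E, the factor that binds the cap, was lowest and fell from 14.9 and 15.5 RPKM to 2.25 and 3.62 RPKM (limma log2 ratio -2.37 ± 0.28 SE, adjusted p = 0.0002, and 0.0525 without GRO-seq replicate 2). Of 7 elongation and termination factors, 4 were called higher, 2 without GRO-seq replicate 1 and 2 without GRO-seq replicate 2, and EEF1A1 was the 1 called lower.

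Replication-dependent histone genes lay at the other end. These genes supply histones in S phase, and their mRNAs end in a conserved stem-loop instead of a poly(A) tail. Of 73 listed, 51 passed the threshold, and all 51 were called lower on polysomes (background 58.6%). Of these, 45 passed through GRO-seq alone, where a lower value on polysomes is largely fixed by the threshold, and the 6 with at least 1 RPKM in both were called lower with a median log2 ratio of -5.01 (background 46.9%). The TR of the 51 ranged from 1.31 to 992 RPKM with a median of 217 RPKM, and their TA had a median of 0.0692 RPKM, with 19 genes listed at 0. The median log2 ratio was -10.81 over the 32 genes above 0 in both, and -9.93 with the genes at 0 placed at a bound of 3 reads over both polysome libraries. It was -9.91 without polysome replicate 1 and -9.60 with geometric means. Together they took 4.24% and 4.87% of the summed RPKM in GRO-seq and 0.0204% and 0.0218% in polysomes. The mRNA kit used for polysomal RNA and the lack of a poly(A) tail move together with these values, and their part in them was not tested. Histone genes are also near-identical copies of each other, so reads may be split between them.

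The stem-loops of 8 histone genes are shown because they mark the 3′ ends that set this group apart, for genes with the highest TR and for those with the highest TA. Sequences are from GRCh37, 5′ to 3′ on the strand of the gene, with the arms of the stem in capitals and the loop in lower case.
HIST1H3B at chr6:26031825-26031840, minus strand: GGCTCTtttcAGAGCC
HIST1H4E at chr6:26205229-26205244, plus strand: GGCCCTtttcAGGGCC
HIST1H1E at chr6:26157323-26157338, plus strand: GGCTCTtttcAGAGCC
HIST2H2AC at chr1:149858941-149858956, plus strand: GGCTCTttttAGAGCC
HIST1H4B at chr6:26027129-26027144, minus strand: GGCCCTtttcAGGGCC
HIST1H1C at chr6:26055972-26055987, minus strand: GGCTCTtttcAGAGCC
HIST1H2AC at chr6:26124897-26124912, plus strand: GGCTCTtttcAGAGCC
HIST1H2BK at chr6:27114145-27114160, minus strand: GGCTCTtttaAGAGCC
The motif searched was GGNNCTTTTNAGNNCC on the strand of the transcript. It was found in 45 of the 46 histone genes with an annotation (97.8%) and in 28 of 14056 other genes compared (0.199%). For each gene the shortest annotated transcript with the motif was used, and longer transcripts were not examined. In 43 of the 45 the motif lay within 20 bases of the end of that transcript. It lay 1729 bases from the end in HIST2H2BE and 109 in HIST2H2BC. HIST1H2BD was not among the 45. Genes that carry the same loop differed widely in TA. HIST1H3B read 862 and 982 RPKM in GRO-seq and 0.0688 and 0.283 RPKM in polysomes, the latter from 1 and 3 reads. HIST1H1C, which encodes a linker histone, read 921 and 1063 RPKM and 22.4 and 28.03 RPKM (limma log2 ratio -5.30 ± 0.23 SE, adjusted p = 3.05e-06). It was 1 of 6 histone genes with a TA of at least 1 RPKM, the others being HIST1H2BD, HIST3H2A, HIST1H2AC, HIST1H2BK and HIST1H2BN.

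Zinc finger and HOX genes are both large families of transcription factors. Of 528 ZNF genes in the table, 364 passed the threshold, 324 were called lower and 6 higher, and the median log2 ratio was -2.44. Since 98 of them passed through GRO-seq alone, which largely fixes a lower call, the 266 with at least 1 RPKM in both are given as well, of which 226 were called lower and 6 higher (background 46.9% and 22.4%), with a median of -1.99. ZNF671 fell from 7.15 and 6.71 RPKM to 0.0133 and 0.0183 RPKM and ZNF154 from 3.62 and 5.06 RPKM to 0.00939 and 0.0129 RPKM, while ZNF277 was highest and rose from 4.28 and 4.10 RPKM to 17.1 and 14.2 RPKM. The number called higher was 18 with each library centred and 2 and 3 without GRO-seq replicates 1 and 2. Among 27 HOX genes compared of 39 listed, 25 were called lower and none higher. Of the 27, 13 passed through GRO-seq alone, and of the 14 with at least 1 RPKM in both 12 were called lower, with a median of -2.08. HOXA2, a patterning gene of the hindbrain, fell from 15.8 and 24.2 RPKM to 0.0365 and 0.125 RPKM, and HOXB7 was closest to equal at 17.7 and 17.8 RPKM and 10.4 and 15.6 RPKM. HOXB7 was not called (limma, adjusted p = 0.123), and was called lower without polysome replicate 2 (adjusted p = 0.00545).

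Genes induced within minutes by growth factors had a median ratio near that of all genes compared, -0.997. It was below the -0.51 of genes with at least 1 RPKM in both. All 35 immediate-early genes reached that level in both, where 46.9% of genes were called lower and 22.4% higher. Of the 35, 23 were called lower (65.7%, against 58.6% of all genes) and 2 higher, with a median log2 ratio of -0.97. The number called lower was 14 with each library centred, and 13 and 7 without GRO-seq replicates 1 and 2. FOS, a subunit of the AP-1 transcription factor, fell from 99.5 and 148 RPKM to 14.7 and 16.1 RPKM (limma log2 ratio -2.97 ± 0.25 SE, adjusted p = 3.64e-05). JUN, its partner, fell from 76.8 and 99.3 RPKM to 41.6 and 44.9 RPKM, and its log2 ratio of -1.01 ± 0.22 (SE, limma adjusted p = 0.00422) was not called with each library centred (-0.37, adjusted p = 0.17). MYC, a driver of growth genes, read 161 and 229 RPKM in GRO-seq and 201 and 317 RPKM in polysomes. The MYC ranges overlapped and its log2 ratio of 0.39 ± 0.31 (SE) did not pass (limma, adjusted p = 0.279), though it did without polysome replicate 1 (0.72, adjusted p = 0.0203). ATF3 and DUSP5, a stress factor and a phosphatase of ERK, were the 2 called higher, and neither kept its call without GRO-seq replicate 1 (limma, adjusted p = 0.0617 and 0.184) or, for DUSP5, GRO-seq replicate 2 (0.0921).

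Among 17 NF-kappaB factors, inhibitors and chemokines, 10 were called lower (58.8%, background 58.6%) and 2 higher, or 6 and 5 with each library centred, the number lower being 5 without GRO-seq replicate 2 and the number higher 1 without GRO-seq replicate 1, GRO-seq replicate 2 or polysome replicate 1. With at least 1 RPKM in both, 8 of 15 genes of the list were called lower and 2 higher (background 46.9% and 22.4%). NFKBIZ, an inducible nuclear inhibitor protein, fell from 19.2 and 23.9 RPKM to 0.743 and 0.414 RPKM. CXCL2, a chemokine that attracts neutrophils, fell from 18.1 and 27.6 RPKM to 1.48 and 1.26 RPKM. NFKBIB, a constitutive inhibitor, rose from 16.7 and 16.5 RPKM to 31.6 and 31.7 RPKM. CDKN1A, the p21 inhibitor of cell cycle kinases, read 222 and 199 RPKM and 179 and 247 RPKM, a log2 ratio of -0.002 ± 0.25 (SE) that changed sign with the library left out (limma, adjusted p = 0.994).

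Stress genes held both directions, as did genes in general. Of 18 genes of the stress response or with upstream open reading frames, 8 were called lower and 3 higher. These were 44.4% and 16.7% of the list, against 58.6% and 17.5% of all genes. Their median of -0.15 turned to 0.49 with each library centred and was -0.87 over the 9 genes that overlap no other. ASNS, asparagine synthetase, rose from 15.9 and 25.9 RPKM to 381 and 196 RPKM, a 13.8-fold higher mean (limma log2 ratio 3.74 ± 0.38 SE, adjusted p = 9.05e-05). ATF4, the factor that induces ASNS and whose own mRNA carries upstream reading frames, fell from 266 and 337 RPKM to 108 and 118 RPKM (limma log2 ratio -1.40 ± 0.23 SE, adjusted p = 0.00117). Without GRO-seq replicate 1 or 2, 1 gene of the list was called higher, and 4 and 3 were called lower. ODC1, the first enzyme of polyamine synthesis, read 51.9 and 58.8 RPKM and 47.8 and 55.4 RPKM and did not pass (limma, adjusted p = 0.667). Of 7 iron genes, 2 were called higher and 2 lower, 1 and 1 without GRO-seq replicate 1 or 2. TFRC, the transferrin receptor, rose from 66.5 and 42.9 RPKM to 139 and 161 RPKM, while FTH1, the ferritin heavy chain, read 326 and 299 RPKM and 283 and 554 RPKM and was not called (limma, adjusted p = 0.402, and 0.00846 without polysome replicate 1). Among 16 circadian clock genes, CRY1 and PER1 were called higher and 6 were called lower, with CLOCK falling from 28.02 and 29.3 RPKM to 3.77 and 4.998 RPKM. Shares called lower were 28.6% of the iron and 37.5% of the clock genes, and shares called higher 28.6% and 12.5%. The background was 46.9% lower and 22.4% higher among genes with at least 1 RPKM in both. They include all 7 iron genes and 15 of the 16 clock genes, and of these 15, 5 were called lower and 2 higher. PER1 lost its call without GRO-seq replicate 1 or 2 (0.174 and 0.173), which left 2 and 3 genes called lower, and the list's median of -0.39 turned to 0.26 with each library centred.

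Cell cycle genes depended on the polysome library. Of 30 mitotic genes, 5 were called higher and 8 lower, and of 40 DNA replication genes 4 and 16. Shares called higher were 16.7% and 10% (background 17.5%), and shares called lower 26.7% and 40% (background 58.6%). The background was 22.4% higher and 46.9% lower among genes with at least 1 RPKM in both, which hold every gene of these lists. Without polysome replicate 1 these counts were 12 higher among the mitotic and 12 among the replication genes, and without polysome replicate 2 there were 16 and 26 lower. Without GRO-seq replicate 1 or 2 no mitotic gene was called in either direction, and at most 2 replication genes were called higher and 3 lower. With each library centred, 13 mitotic genes were called higher and 3 lower, and 13 and 12 replication genes. The medians of -0.19 and -0.37 turned to 0.22 and 0.07 without polysome replicate 1 and to 0.45 and 0.27 with each library centred. MKI67, the proliferation marker Ki-67, fell from 94.1 and 77.1 RPKM to 12.05 and 27.7 RPKM, and CCNB1, mitotic cyclin B1, rose from 39.2 and 44.6 RPKM to 76.2 and 116 RPKM, and neither kept its call without GRO-seq replicate 1 (limma, adjusted p = 0.115 and 0.121) or 2 (0.0962 and 0.0967). RPA1, which coats single-stranded DNA, rose from 19.7 and 17.7 RPKM to 48.7 and 60.7 RPKM, and it kept its call with each library left out. CCNE2, the S phase cyclin E2, fell from 31.7 and 33.3 RPKM to 1.49 and 4.32 RPKM, a call lost without GRO-seq replicate 1 or 2 (0.0682 and 0.0727).

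Genes of splicing and growth control had medians near that of all genes compared, -0.997, but below the -0.51 of genes with at least 1 RPKM in both. With that level in both, 8 of 12 SR splicing factors were called lower and 2 higher (median -0.83). Among RAS, Wnt and other tumor genes, 18 of 26 were then lower and 4 higher (median -1.01). The background there was 46.9% lower and 22.4% higher. Of 14 SR splicing factors, 10 were called lower (71.4%, background 58.6%) and 2 higher, with a median log2 ratio of -1.06, and 6 were called lower with each library centred, and 6 lower and 1 higher with either GRO-seq library left out. SRSF10 fell from 1.72 and 2.21 RPKM to 0.237 and 0.147 RPKM, and SRSF9 rose from 43.3 and 38.5 RPKM to 92.98 and 102 RPKM, with 43.6% of its exon length overlapping another gene. Of 28 genes of RAS and Wnt signaling and other tumor genes, 20 were called lower (71.4%) and 4 higher, with a median of -1.02 and with 12 lower when each library was centred and 12 and 11 without GRO-seq replicates 1 and 2, the latter leaving 1 called higher. CTNNB1, beta-catenin, rose from 38.8 and 27.2 RPKM to 161 and 157 RPKM. RNF43, which removes Wnt receptors from the membrane, fell from 48.3 and 60.2 RPKM to 3.43 and 5.05 RPKM, with 68.4% of its exon length overlapping another gene. Of 22 genes for giant proteins, 19 were called lower and none higher (17 of the 20 with at least 1 RPKM in both), and the counts were 8 and 12 lower without GRO-seq replicates 1 and 2. The 19 were 86.4% of the genes compared (background 58.6%), and the background for the 17 of 20 was 46.9%. SYNE2, a giant protein of the nuclear envelope, fell from 12.7 and 8.11 RPKM to 0.274 and 0.373 RPKM. PRKDC, the DNA-dependent protein kinase, read 45.7 and 27.7 RPKM and 32.02 and 39.8 RPKM and was not called.

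Among single genes with at least 1 RPKM in both, RAB26, a small GTPase of secretory vesicles, had the lowest ratio. Its TR was 307 and 366 RPKM and its TA 0.658 and 1.56 RPKM (limma log2 ratio -8.22 ± 0.37 SE, adjusted p = 3.17e-06). METTL12 and TMEM107, both with a small RNA gene inside their exons in the annotation, fell from 265 and 332 RPKM to 2.30 and 1.36 RPKM and from 199.8 and 229.9 RPKM to 2.82 and 4.45 RPKM. The other genes among the 10 lowest were HIST1H2BN, RPS28, GPR162, SPAG4, LRRC75A, RPS26 and CCDC142. At the high end, 4 of the 10 carried pseudogene or unassigned symbols, namely LOC100130331, EIF3IP1, ANXA2P3 and ANXA2P2, and HSP90B2P was a 5th. ANXA2P2, ANXA2P3, HSP90B2P and EIF3IP1 are copies of ANXA2, HSP90B1 and EIF3I, and reads may be split between near-identical copies, so these values are uncertain. GLUD2, a gene of 1 exon that copies GLUD1, read 4.04 and 1.37 RPKM and 56.9 and 48.2 RPKM, and EDARADD, an adaptor of ectodysplasin signaling, 10.6 and 3.36 RPKM and 138 and 133 RPKM. Of the 90 genes with at least 1 RPKM in polysomes alone, 71 were called higher, a direction that the threshold largely fixes. SPRR2D, a protein of the cornified envelope, led them with 0 and 1 GRO-seq reads and 21.4 and 17.9 RPKM in polysomes.

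Most genes without a protein product passed through GRO-seq alone, which largely fixes a lower call. Of 135 long non-coding RNA genes, 132 were called lower and 1 higher, with a median of -4.86, and of 250 pseudogenes 205 were lower and 38 higher, with a median of -3.53. Among those with at least 1 RPKM in both, 26 of 27 long non-coding RNA genes were called lower and none higher, with a median of -2.35, and 49 of 78 pseudogenes were lower and 23 higher, with a median of -1.43 (background 46.9% and 22.4%). All protein-coding genes compared had a median of -0.93 with 17.9% called higher and 57.4% lower. The 5 small RNA genes compared, 4 of them copies of U6, passed through GRO-seq alone and were all listed at 0 in polysomes. Host genes of snoRNAs and nuclear long non-coding RNAs such as MALAT1 were not analysed here.

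The ratio varied with the structure of protein-coding genes. Among those with at least 1 RPKM in both, the median log2 ratio was -1.66 for 167 genes of 1 exon, -1.22 for 2 to 3 exons, -0.49 for 4 to 7 and -0.30 for 8 to 15, and it was -0.49 again at 16 or more. With exon length it fell from 0.05 in the shortest group of genes, up to 1748 bases, to -0.98 in the longest, from 5292 bases. Over all protein-coding genes compared, with genes at 0 placed at their bound, the medians by exon length were -0.96, -0.88, -0.84, -0.93 and -1.25, without the steady fall seen under the threshold in both, which the ratio itself partly decides. Under the threshold in both, the median also fell with GC content of the mRNA, from -0.28 in the lowest group to -0.97 in the highest. Single pairs of libraries gave the same order for exon length, and the lowest medians at 1 exon and at 2 to 3 exons, and in the group of highest GC the first replicates gave -1.17 and the second -0.83. Spearman's rho across genes was weak for each, 0.105 for exon number, -0.222 for exon length and -0.163 for GC (n = 10648 to 10666), and for exon length it was -0.0872 over all 13265 protein-coding genes above 0 in both assays. The number of ATTTA words per kilobase of 3′ UTR, the core of AU-rich elements, had a rho of 0.08 (n = 10328). The median was -0.50 for genes without the word, and -0.73, -0.52 and -0.30 in groups with rising numbers of it. Exon number, length, GC and TR are correlated with each other, and their parts were not separated.

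**Figure D5:**
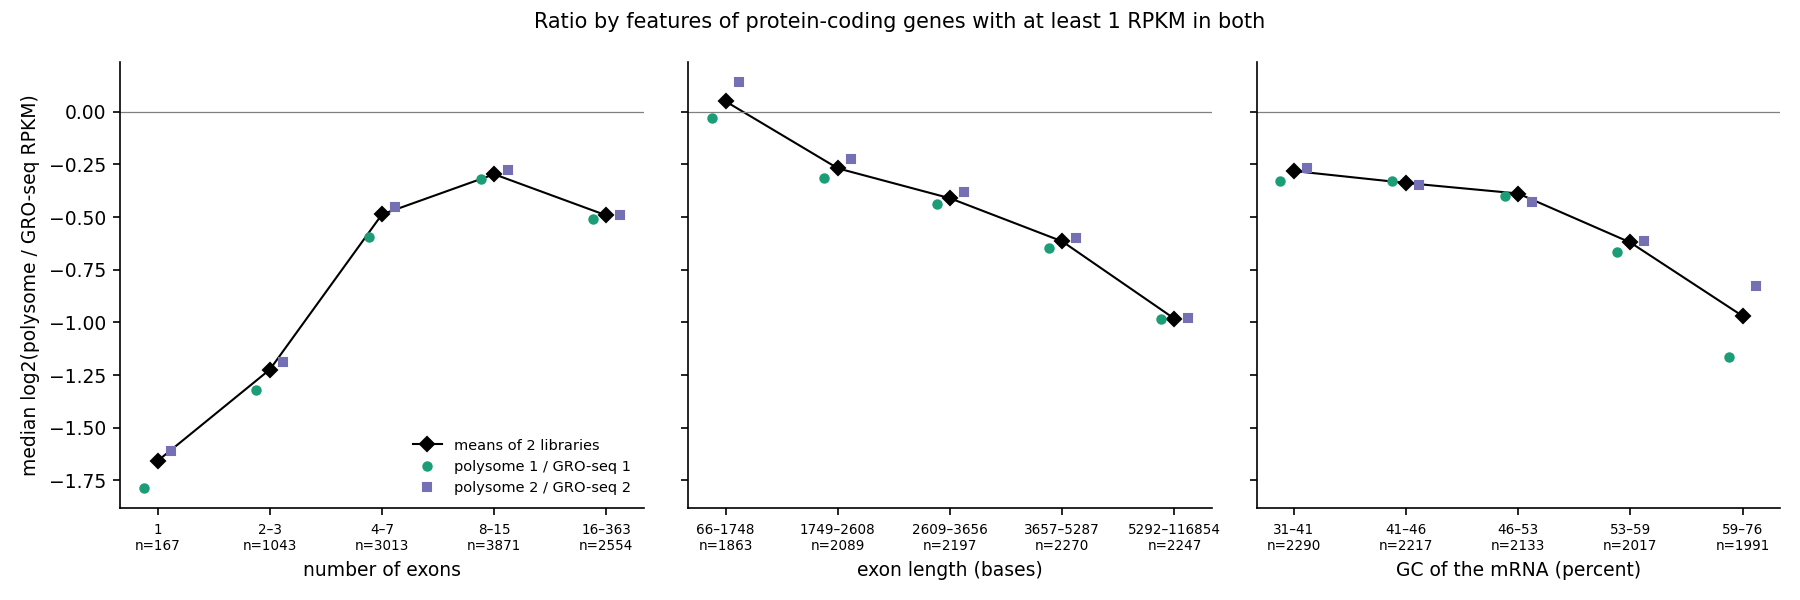
Median log2 ratio of polysome to GRO-seq RPKM of protein-coding genes with at least 1 RPKM in both, by exon number, exon length in bases and GC percent of the mRNA, with the number of genes under each group. Diamonds are ratios of means, circles and squares single pairs of libraries, and the medians are lowest for genes of 1 exon, for the longest and for the most GC-rich.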

How the data were processed

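Data were from 2 GRO-seq (TR) and 2 polysome (TA) libraries of log-phase HCT116 cells, and the 3 RNA-seq libraries of the series did not enter. The authors mapped reads to hg19 with TopHat, counted reads over exons with HTSeq and deposited RPKM values per gene and library. The strand setting, the handling of reads with several matches and the annotation are not given in the sources used here. Each RPKM times its exon length and library size gave a whole read count for 100% of values (relative tolerance 1e-08), from which depth was worked out. Depth speaks for counting error only.

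Ratios are log2 of the means of 2 libraries. The gene-wise test, limma 3.58.1 (R 4.3.3), used log2(RPKM + 0.1) values and an eBayes variance trend, and was adjusted by Benjamini-Hochberg over the 14283 genes with a mean of at least 1 RPKM in GRO-seq or polysomes, at a threshold of 0.05. On this scale low values are understated. SE is the standard error of the limma log2 ratio. An exact permutation test of 2 against 2 libraries cannot go below p = 0.333. On simulated data of the same 14283 genes, limma found 182 of 200 genes changed 4-fold and called 13 of 14083 unchanged genes. The simulation gave both assays equal levels apart from these 200 genes, changed in both directions, with independent noise of 1 assumed spread. The real libraries differ from that setting, so these counts do not give the rate of false calls in them. Other steps used Python 3.11.15, numpy 2.4.6, pandas 2.3.3, scipy 1.17.1 and matplotlib 3.10.9.

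Of 20056 symbols, 18772 were found as such in GENCODE release 44 lifted to GRCh37, 906 by an older name, and 378 had no match. Start sites came from RefSeq on GRCh38.p14.

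The genes compared and the gene lists were chosen with earlier results of these data known. Genes were named by a rule: the 10 highest and 10 lowest ratios among called genes with at least 1 RPKM in both, the 10 highest levels in each assay, the 5 highest in 1 assay among those below 1 RPKM in the other, the 2 highest and 2 lowest of each list, and landmark genes. The remaining histone genes with at least 1 RPKM in polysomes and the markers were named in addition. Some genes that fall under this rule, and 1 gene list, are not reported here. Alternatives covered the RPKM threshold, the pseudocount, centring, non-coding and histone symbols, overlapping genes, the mean, a replicate block, eBayes without trend, voom on recovered reads and each library left out.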

Additional observations from a re-analysis of the deposited data

How the results depend on the processing

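Read numbers limit the low end, since 1 RPKM on a gene of median exon length rested on 10.3 reads in the smallest GRO-seq library, and with 2 libraries a group each call leans on the spread of the other genes. With genes of at least 1 RPKM in both, 5121 genes were called lower, the median log2 ratio was -0.51, its SD 1.55 and the slope of log2 TA on log2 TR 0.927, against 8375, -0.997, 2.67 and 1.29. Centring each library on its median gave 4067 genes called higher, 38.5% of calls, and a median of -0.35. Without overlapping genes 5453 were called lower and the median was -0.89. Of 115 genes followed by name, 77 remained in that fit. Left out for an overlap or a small RNA gene in an exon were, among others, AARS, ACTB, ACTG1, CCDC142, CCNE2, CLOCK, EEF1A1, EEF2. So were EIF3I, FTH1, GPR162, HSP90B1, HSP90B2P, KRT18, MRPL28, NDUFA11, NDUFC2, NFKBIB, NFKBIZ, PER1, PGK1, RPA1. The same held for RPL13A, RPL36A, RPS28, TCP1, TM7SF2, TMSB10, TPI1, VIL1 and ZNF277. A threshold of 0.5 RPKM gave r = 0.654, a threshold of 2 RPKM a median of -0.93 and r = 0.55, and no filter a median of -1.21 and r = 0.767, against 0.607. A pseudocount of 0.01 moved the median to -1.09 and the SD to 2.84, and a pseudocount of 1 to -0.92 and 1.64, with r = 0.648 and a slope of 0.996. The geometric mean gave an SD of 2.38. The labels do not say whether the replicate numbers pair the libraries. The difference between the GRO-seq replicates correlated with that between the polysome replicates with an r of 0.0193 over 10841 genes. This value cannot decide the pairing, since some gene lists moved the same way in both assays and others did not. With a replicate block 2547 genes were called higher and 8484 lower and the SD was 2.52. With each library left out in turn, the genes called higher ranged from 1368 to 2647 and those called lower from 5480 to 8711, with 19.98% to 23.9% of calls higher. Over the same 4 fits the median ranged from -1.03 to -0.92, the SD from 2.46 to 2.72, r from 0.577 to 0.633 and the slope from 1.21 to 1.34. A lone library was then assumed to vary like the other group, and of the 10878 genes called, 7222 and 6821 were shared without GRO-seq replicates 1 and 2, all in the same direction. With each library centred, the medians of clock, stress, mitotic and DNA replication genes turned to 0.26, 0.49, 0.45 and 0.27, and the log2 ratios of CD68, CDKN1A, HOXB7, IER3 and ODC1 to 0.19, 0.64, 0.17, 0.37 and 0.54. With each library left out in turn, the mitotic median ranged from -0.65 to 0.22, with 0.04 without GRO-seq replicate 2, and that of DNA replication genes from -1.02 to 0.0654. In the same fits the log2 ratio of CDKN1A ranged from -0.23 to 0.23, with 0.08 without GRO-seq replicate 1, DKK1 from -0.12 to 0.83, FTH1 from -0.14 to 0.83, ODC1 from -0.21 to 0.0036, PRKDC from -0.35 to 0.37, SEC63 from -0.10 to 0.30 and SPCS2 from -0.0652 to 0.55. With voom CDKN1A was at 0.0023 and PRKDC at -0.0095. None of these genes was called in the reported fit, and the cause of the changes was not tested. Of 1767 values of 115 genes under alternatives, 1690 kept direction and side of the threshold, 45 lost a call, 16 gained one and 16 changed sign.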

Other observations

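The polysome libraries differed from each other by gene group. Over 10841 genes with at least 1 RPKM in both assays, the median log2 difference between polysome replicate 2 and replicate 1 was 0.02. As a background, 5595 of these genes were higher in polysome replicate 2 and 5495 in GRO-seq replicate 2. All 30 mitotic genes were higher in polysome replicate 2, by a median of 1.87-fold, as were 38 of 40 DNA replication genes, by 1.97-fold, and all 12 actin and tubulin genes, by 1.84-fold. In the other direction, 28 of 31 ER chaperone and translocon genes were higher in replicate 1, by a median of 1.33-fold, and 17 of 20 cytosolic aminoacyl-tRNA synthetases, by 1.48-fold. Between the GRO-seq libraries, all 35 immediate-early genes were higher in replicate 2, and 0 of 20 genes for giant proteins. Between the polysome libraries, 29 of these 35 and 4 of these 20 were higher in replicate 2. In GRO-seq replicate 2, 9 of the 31 ER genes, 15 of the 30 mitotic and 19 of the 40 DNA replication genes were higher. Glycolytic genes went opposite ways, with 15 of 17 higher in polysome replicate 2 and 2 of 17 in GRO-seq replicate 2. No test was made of these differences, which rest on 1 library each, and the labels give no reason for them.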
